A study of Mus musculus with 11 samples.

Results

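Of 1652 regions with a called difference in H3K27 acetylation (H3K27ac) between atrial cardiomyocyte nuclei of *Tbx5*G125R/+ and control mice, 7 lay at the endothelial genes *Kdr*, *Cdh5* and *Erg*. In detail, 5 belonged to *Kdr*, 1 to *Cdh5* and 1 to *Erg*. A region was taken when the midpoint of its top bin, the 500 bp bin of a region that the authors list as its most significant, lay in the gene body or within 100 kb of it, and when that gene was the nearest protein-coding gene. The regions were therefore chosen by the authors' test of the genotypes, and the differences between genotypes below are descriptions without a test. Regions that did not pass that test were not analysed here.

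*Kdr*, *Cdh5* and *Erg* are used to define endothelial cells, which line vessels and the inner surface of the heart. *Kdr* encodes vascular endothelial growth factor (VEGF) receptor 2, the main signalling receptor for VEGF-A. *Cdh5* encodes VE-cadherin, which holds neighbouring endothelial cells together at adherens junctions. *Erg* encodes a transcription factor of the ETS family that maintains endothelial identity and activates *Cdh5*. H3K27ac marks active promoters and enhancers, so that its level at such genes is read as a sign of regulatory activity.

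The assay was CUT&RUN, which uses a nuclease tethered to an antibody against the mark to free the marked chromatin for sequencing. The 6 *Tbx5*G125R/+ libraries came from mice heterozygous for a missense change introduced into the germline gene of the T-box factor Tbx5, so that all cells of the animal carry it, and the 5 control libraries came from mice labelled only as controls. All mice were 8 to 12 weeks old, left and right atria were pooled, and nuclei were sorted for PCM1, which surrounds the nucleus in cardiomyocytes. Values are given as normalised reads, the reads after division by the size factor of the library, taken here as those of the top bin. The libraries held 43183 to 161738 reads in all top bins in *Tbx5*G125R/+ and 27118 to 72442 reads in controls, and replicate 5 was the shallowest of its genotype in both. The paper counts 5 control and 6 *Tbx5*G125R/+ samples of pooled atria, taken here as separate mice, and the spreads below are those between these libraries. Sorted nuclei were analysed in bulk, so more nuclei of a type and more acetylation per nucleus cannot be told apart.

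The gene body of *Kdr* spans 75932827 to 75979072 on chromosome 5 of mm10 (RefSeq annotation of GRCm38.p6), on the minus strand. Region 5 is the 1 *Kdr* region that contains the start site, at 75978455, and with it the core promoter. The promoter sequence is shown because a called region spans it. It covers 250 bases before to 50 bases after the start site (chr5:75978406-75978705, minus strand, RefSeq, GRCm38.p6). Capitals mark GGGCGG, the GC box bound by Sp factors, and GGGCGTG, a motif of KLF factors, on either strand.
*Kdr* promoter: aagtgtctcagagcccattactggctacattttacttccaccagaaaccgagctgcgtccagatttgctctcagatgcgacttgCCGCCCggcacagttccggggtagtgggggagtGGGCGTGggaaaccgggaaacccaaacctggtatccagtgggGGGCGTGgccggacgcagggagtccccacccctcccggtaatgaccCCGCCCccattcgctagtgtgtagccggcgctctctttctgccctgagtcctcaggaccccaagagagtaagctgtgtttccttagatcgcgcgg
The promoter held 2 copies of GGGCGG and 2 of GGGCGTG, none of which overlapped. Of 32851 promoters of this length, 35.7% held GGGCGG and 8.44% held GGGCGTG. These motifs were chosen after the sequence had been seen. Of the ETS motifs, CAGGAAG was not in this window on either strand and occurs in 13.3% of promoters, and CCGGAAG, also not in it, occurs in 8.86%. The T-box motif GGTGTGA (3.98% of promoters) and the MEF2 motif AAAATAG (4.22%) were not found in it. The GATA motif AGATAA (11.2%) was not found either. The same held for the E-box CAGCTG (16.3%). The GC content was 60.7%, against a median of 52.7% over all promoters. The promoters of *Erg* lay outside its called region and are not shown.

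With the deposited scaling, 6 of the 7 regions had a higher mean level of the mark in *Tbx5*G125R/+ nuclei, all 5 at *Kdr* and the 1 at *Cdh5*. The region in *Erg* had a lower one. Libraries were also rescaled by trimmed means of the table's own regions (TMM), which are called differences only. *Kdr* regions 1 and 2 then had log2 differences of -0.11 ± 0.29 and -0.072 ± 0.38 (SE), both within 1 SE of 0. Over all regions listed, a share of 81.1% had a higher and 18.9% a lower mean log2 level in *Tbx5*G125R/+. The 5 *Kdr* regions showed no overlap, with the lowest *Tbx5*G125R/+ library above the highest control, as in 73.2% of all regions of the table. The *Cdh5* and *Erg* regions overlapped between genotypes, and 15.1% of all regions had their highest *Tbx5*G125R/+ library below the lowest control. Since the table was built from this contrast, nothing is read from these counts. TMM shifted the median log2 difference over all regions by -1.24, to 2.09. Relative to the table's median, *Kdr* region 1 lay at -1.73 with the deposited scaling and at -2.21 with TMM, and *Kdr* region 4 lay at 1.66 with the deposited scaling and at 1.76 with TMM.

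**Figure D1:**
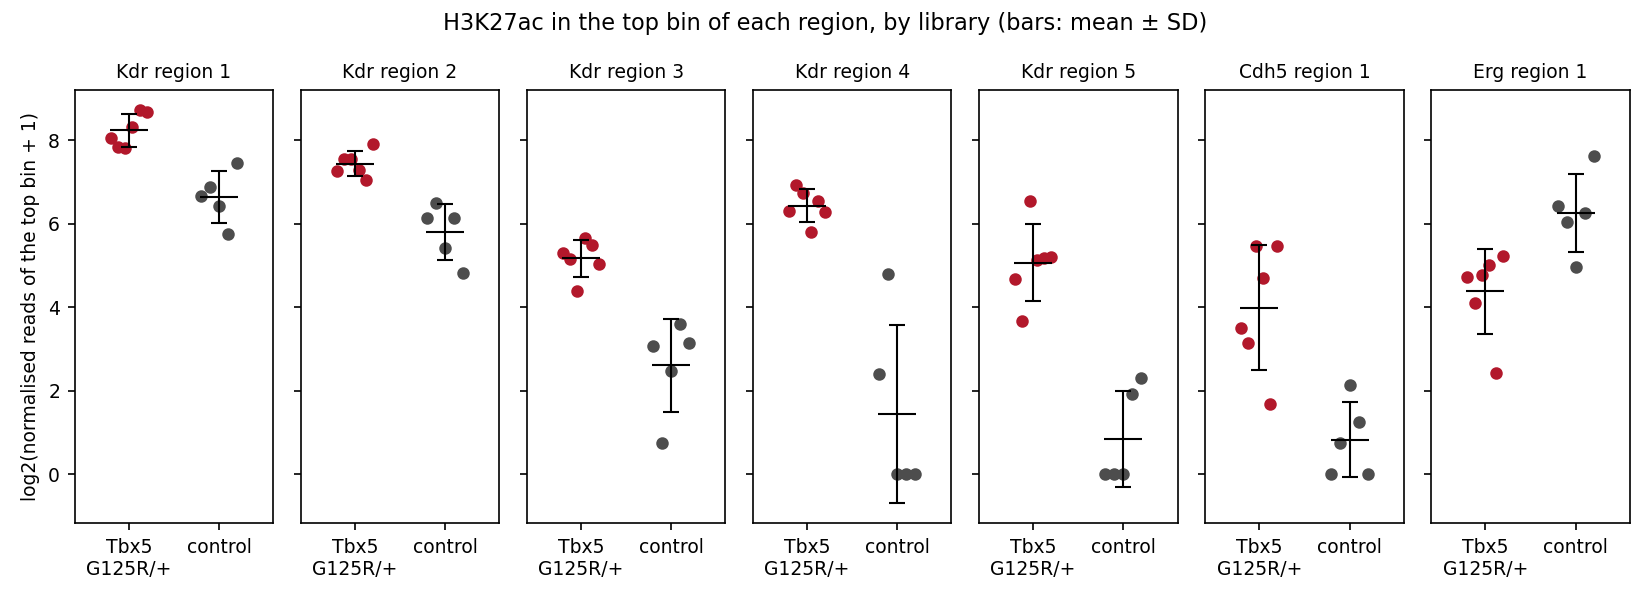
Level of H3K27ac in the top bin of each region, as log2(normalised reads + 1), with 1 point per library, 6 *Tbx5*G125R/+ libraries in red and 5 control libraries in grey; bars give the mean and SD on this scale. With the deposited scaling all 5 *Kdr* regions separate the genotypes (with TMM, 2 of the 7 regions do, and *Kdr* regions 1 and 2 change sign), whereas *Cdh5* and *Erg* overlap.

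*Kdr* carried most of the signal. Summed over its 5 top bins, the level ran from 558 to 791 normalised reads in *Tbx5*G125R/+ libraries and from 130.4 to 233 in control libraries. Means were 648 ± 89.8 (SD, n = 6) in *Tbx5*G125R/+ and 179 ± 45.5 (SD, n = 5) in controls, a ratio of 3.63. On the log2(level + 1) scale the difference was 1.88 ± 0.18 (SE), which shrank to 1.14 when each library was scaled to the same total over the table and to 0.16 with TMM. The table held 1281 genes with a region assigned in this way, and *Kdr* was 1 of 2 genes with 5 or more. That count depends on how bins were merged into regions, since region 3 ends at 75943500 and region 4 starts at 75944251.

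The *Kdr* regions were numbered by coordinate, so that region 1 lies farthest downstream of the gene and region 5 at its start. Regions 1 and 2 lie in the flank beyond the 3′ end of the gene, with their top bins 58.1 and 31.8 kb outside the gene body. The top bin of region 3 lies 0.577 kb outside that end, and the region itself reaches into the gene. Regions 4 and 5 have their top bins inside the gene, 31.7 and 8.70 kb downstream of the start site. The annotation used here gives gene bodies only, so exons and introns were not told apart.

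**Figure D2:**
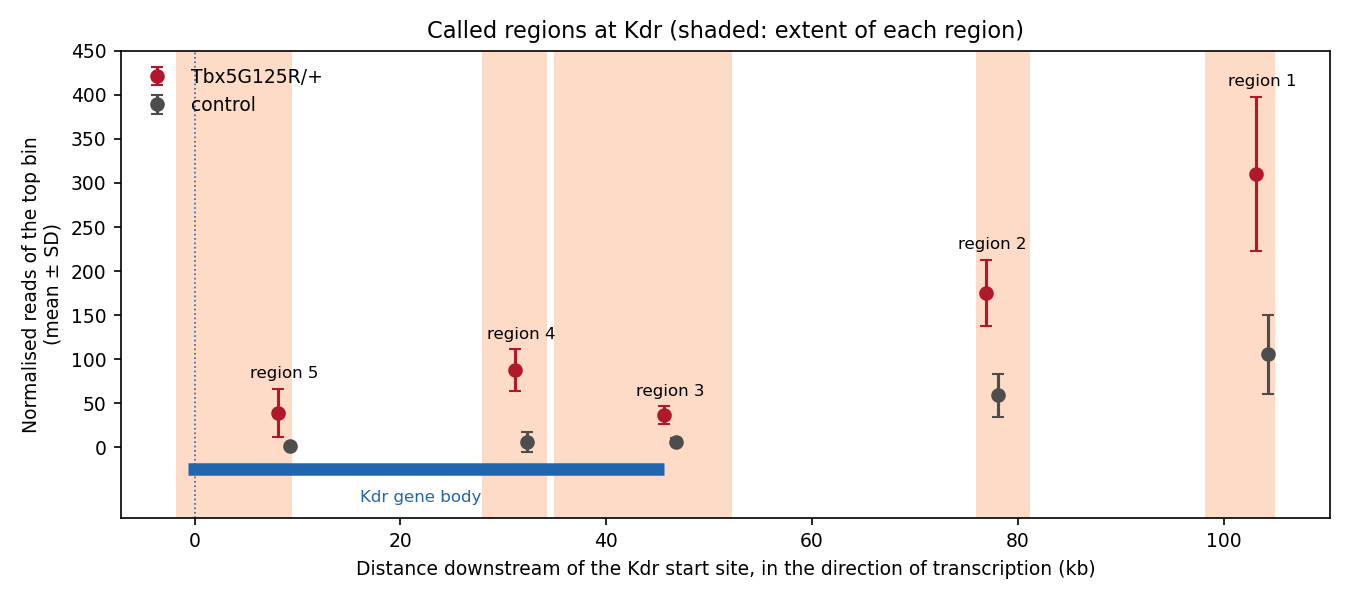
Mean level of the top bin (normalised reads, bars SD) of the 5 *Kdr* regions against distance downstream of the *Kdr* start site in kb, for 6 *Tbx5*G125R/+ libraries (red) and 5 control libraries (grey), drawn slightly apart sideways; shaded bands show the extent of each region and the blue bar the gene body. Regions 1 and 2 beyond the 3′ end had the highest levels in both genotypes (their difference changes sign with TMM), and region 5 spans the start site.

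Region 1, on chromosome 5 from 75873501 to 75880250, was the most strongly acetylated. Its top bin (75874501 to 75875000) had a lowest, median and highest level of 222, 292 and 420.04 normalised reads in *Tbx5*G125R/+ libraries, against 100.1, 117, 84.3, 52.6 and 174 in control replicates 1 to 5. The mean was 310.3 ± 87.3 (SD, n = 6) in *Tbx5*G125R/+ and 106 ± 44.8 (SD, n = 5) in controls, a 2.94-fold higher level with the deposited scaling. With TMM the log2 difference was -0.11 ± 0.29 (SE), within 1 SE of 0. Replicate 5 was the highest library of both genotypes in this bin. The region was strongly acetylated in controls, above 99.0% of the regions that were higher in *Tbx5*G125R/+, whereas its ratio exceeded that of 3.58% of them. Those regions had a median control level of only 2.27, against 90.2 over the regions that were lower in *Tbx5*G125R/+.

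Region 2, from 75897251 to 75902500, had a similar ratio at a lower level. Its top bin (75900751 to 75901250) had a lowest, median and highest level of 131, 170.4 and 239 normalised reads in *Tbx5*G125R/+ libraries. The control libraries had 69.2, 88.6, 41.6, 69.2 and 27.3 in replicates 1 to 5. The means of 175 ± 37.6 in *Tbx5*G125R/+ (SD, n = 6) and 59.2 ± 24.5 in controls (SD, n = 5) gave a ratio of 2.96 with the deposited scaling. With TMM the log2 difference was -0.072 ± 0.38 (SE), within 1 SE of 0. Here replicate 5 was the lowest library of both genotypes, the reverse of region 1.

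Region 3, from 75926251 to 75943500, is the widest of the 5 with 17250 bp. Its top bin (75932001 to 75932500) held less signal than those of regions 1 and 2, with 19.9, 36.4 and 49.5 normalised reads as lowest, median and highest level in *Tbx5*G125R/+ libraries, against 7.46, 0.681, 4.50, 11.1 and 7.80 in control replicates 1 to 5. The means were 36.3 ± 10.2 in *Tbx5*G125R/+ (SD, n = 6) and 6.30 ± 3.91 in controls (SD, n = 5), a 5.76-fold difference. The difference of mean log2(level + 1) was 2.57 with the deposited scaling, 1.91 with the same total and 1.04 with TMM. The control values rest on 24 reads in all.

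Region 4, from 75944251 to 75950500, went with an almost empty top bin in most control libraries. Its top bin (75946501 to 75947000) had 54.7, 84.6 and 120.1 normalised reads as lowest, median and highest level in *Tbx5*G125R/+ libraries. Control replicates 1 and 2 had 4.26 and 26.6, and replicates 3, 4 and 5 had 0 reads, which allows up to 3.37, 4.15 and 5.85 normalised reads (3 reads each, counting error only). The means were 87.7 ± 23.4 in *Tbx5*G125R/+ (SD, n = 6) and 6.17 ± 11.6 in controls (SD, n = 5), a ratio of 14.2. Of the 43 control reads 39 came from replicate 2, yet that library still lay below the lowest *Tbx5*G125R/+ library. Without control replicate 2 the control mean was 1.07 and the ratio 82.3, with 4 control reads left, and the difference of mean log2(level + 1) was 5.83 in place of 4.99.

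Region 5, from 75969001 to 75980250, spans the start site and had almost no control signal. Its top bin (75969501 to 75970000) had 11.7, 34.5 and 91.6 normalised reads as lowest, median and highest level in *Tbx5*G125R/+ libraries. In controls, replicates 1, 2 and 3 had 0 reads, which allows up to 3.20, 2.04 and 3.37 normalised reads, and replicates 4 and 5 had 2.77 and 3.90. The means of 38.8 ± 27.5 in *Tbx5*G125R/+ (SD, n = 6) and 1.33 ± 1.87 in controls (SD, n = 5) gave a ratio of 29.1, which rests on 4 control reads. Without control replicate 5 the control mean was 0.692, with 2 control reads left, and the difference of mean log2(level + 1) was 4.59 in place of 4.22. Replicate 3 stood far above the other *Tbx5*G125R/+ libraries, the next of which had 36.0. The values were read as those of the top bin, which does not cover the promoter, and no level of the promoter alone is given here.

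The order of the *Kdr* regions was clearer in *Tbx5*G125R/+ than in controls, where regions 3 to 5 had few reads. In *Tbx5*G125R/+ nuclei region 1 exceeded region 2, region 2 exceeded region 4, and region 4 exceeded region 5 in 6 of 6 libraries each. Regions 5 and 3 did not differ beyond their spread, with region 5 above region 3 in 2 of 6 libraries. In controls region 2 exceeded region 3 in 5 of 5 libraries. Region 1 exceeded region 2 in 4 of 5 control libraries, with a mean difference of 46.4 ± 60.2 (SD) that lay within the spread. Control region 3 exceeded region 4 in 4 of 5 libraries, but the mean difference was only 0.137 ± 14.9 (SD). The exception was control replicate 2, with 0.681 in region 3 and 26.6 in region 4. Control regions 4 and 5 did not differ beyond their spread, with region 4 higher in 2 of 5 libraries.

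Regions 3 to 5, at the gene itself, held 25.5 ± 5.69% of the summed *Kdr* level in *Tbx5*G125R/+ (SD, n = 6) and 7.46 ± 3.40% in controls (SD, n = 5). The ranges of 18.2 to 34.8% in *Tbx5*G125R/+ libraries and 3.45 to 11.7% in control libraries did not overlap. A share within 1 library does not depend on its size factor, but it comes from the contrast that chose the regions and was not tested. Region 4 alone held 13.8 ± 4.46% of the level in *Tbx5*G125R/+ and 2.75 ± 4.94% in controls. The flanking regions 1 and 2 supplied most of the level in every library.

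**Figure D3:**
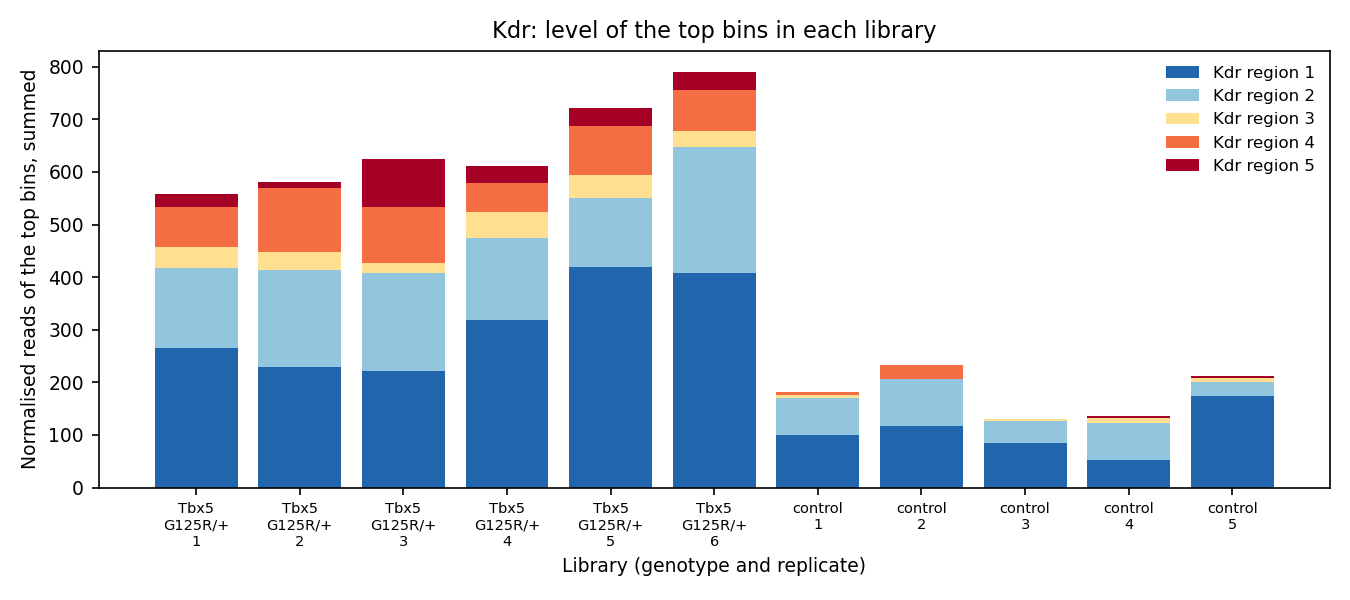
Normalised reads of the 5 *Kdr* top bins, stacked, in each of the 6 *Tbx5*G125R/+ and 5 control libraries. The *Tbx5*G125R/+ sums lie between 558 and 791 and the control sums between 130.4 and 233; the gene-proximal regions 3 to 5 take 25.5 ± 5.69% in *Tbx5*G125R/+ and 7.46 ± 3.40% in controls. With TMM the log2 difference of the sums was 0.16 ± 0.18 (SE), and those of regions 1 and 2 also lay within 1 SE of 0.

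The 5 *Kdr* regions showed no shared rise and fall from library to library, but few control reads limit this view. After the mean of each genotype had been removed, Pearson's r between 2 *Kdr* top bins ran from -0.78 (regions 3 and 4) to 0.64 (regions 2 and 4), with a median of -0.21 over 10 pairs. Over all pairs of regions in the table the median was 0.046. Both extremes involve region 4, where control replicate 2 held 39 of the 43 control reads. Regions 3 and 5 had 24 and 4 control reads. For regions 3 to 5 a lack of co-variation therefore cannot be told from counting error. These correlations are descriptions over 11 libraries that share depth and scaling. By the same measure, the region whose deviations were most like the summed *Kdr* level lay in *Slc3a2*, which encodes the heavy chain of amino acid transporters (r = 0.84 over 11 libraries). It averaged 47.6 ± 14.3 normalised reads in *Tbx5*G125R/+ and 5.99 ± 5.91 in controls. Next came a region on chromosome X without a protein-coding gene within 100 kb (r = 0.80) and 1 near *Grik1*, a kainate receptor gene (r = 0.79). The 3 were picked as the highest of 1495 regions searched.

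*Cdh5* had 1 region, on chromosome 8 from 104095001 to 104098500, just below the lower end of the gene body (104101613 to 104144504). Its top bin (104098001 to 104098500) lay 3.36 kb outside the gene. In *Tbx5*G125R/+ libraries the lowest, median and highest levels were 2.19, 17.5 and 43.3 normalised reads, against 0, 0.681, 3.37, 1.38 and 0 in control replicates 1 to 5. *Tbx5*G125R/+ replicates 3 and 6 had the highest levels and replicate 5 the lowest, which overlapped the controls. The 0 reads of control replicates 1 and 5 allow up to 3.20 and 5.85 normalised reads.

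Over the libraries *Cdh5* averaged 21.9 ± 18.1 in *Tbx5*G125R/+ (SD, n = 6) and 1.09 ± 1.40 in controls (SD, n = 5). The ratio of means was 20.1, which rests on 5 control reads, and the difference of mean log2(level + 1) was 3.16 ± 0.73 (SE), or 2.10 with TMM. Without control replicate 3 the control mean was 0.517, with 2 control reads left, and that difference was 3.49. *Tbx5*G125R/+ replicate 5 held 1 read here, where 1 read is worth 2.19 normalised reads. At this depth its level cannot be told from that of the controls. The coefficient of variation in *Tbx5*G125R/+ was 82.6%, against a median of 42.7% over regions with a higher level in *Tbx5*G125R/+. The regions most like *Cdh5* in their deviations lay in *Tln2*, the gene of the adhesion protein talin 2 (r = 0.85), *Tnfaip8l2* (r = 0.80) and *Erc2* (r = 0.80, or 0.60 without replicate 5 of each genotype), over 11 libraries and 1499 regions searched. Of these, the *Erc2* region had a lower level in *Tbx5*G125R/+ (5.72 ± 3.83) than in controls (34.9 ± 17.3), opposite to *Cdh5*.

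*Erg* was the 1 gene of the 3 with a lower level. Its region, on chromosome 16 from 95380751 to 95387000, lies inside the gene body (95359169 to 95586600). The gene is on the minus strand with 3 start sites in the promoter table, and the top bin (95385001 to 95385500) lies 74.1, 145 and 201 kb downstream of them. The lowest, median and highest levels were 4.38, 25.8 and 36.5 normalised reads in *Tbx5*G125R/+ libraries, against 84.1, 64.7, 30.4, 74.8 and 195 in control replicates 1 to 5. *Tbx5*G125R/+ replicates 4 and 6 lay above control replicate 3, so the groups overlapped.

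*Erg* averaged 23.3 ± 11.4 in *Tbx5*G125R/+ (SD, n = 6) and 89.8 ± 62.2 in controls (SD, n = 5), a ratio of means of 0.259. The difference of mean log2(level + 1) was -1.88 ± 0.59 (SE), or -3.52 with TMM. The shallowest libraries lay at the extremes, with replicate 5 the lowest in *Tbx5*G125R/+ and the highest in controls. Without replicate 5 of each genotype the difference was -1.15 ± 0.37 (SE) on the log2 scale. Within the 313 regions that were lower in *Tbx5*G125R/+, the level of *Erg* was near the middle, above 46.6% of them in *Tbx5*G125R/+ and above 49.5% in controls. The most similar region in its deviations lay on chromosome 2 from 123064501 to 123065000, 255 kb from the nearest gene (r = 0.98 over 11 libraries, 0.91 without replicate 5 of each genotype). It averaged 3.06 ± 2.02 in *Tbx5*G125R/+ and 39.8 ± 24.0 in controls. It was followed by regions in *Capzb*, which encodes an actin capping protein (r = 0.87, or 0.57 without replicate 5 of each genotype), and *Phldb2* (r = 0.87), both with higher levels in *Tbx5*G125R/+.

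Called regions around *Erg* were higher in *Tbx5*G125R/+, as were 81.1% of all regions of the table. The nearest called region outside the limit lay in *Kcnj15*, an inwardly rectifying potassium channel gene, 100.4 kb from the *Erg* gene body. It averaged 41.0 ± 18.2 in *Tbx5*G125R/+ (SD, n = 6) and 2.52 ± 3.79 in controls (SD, n = 5). On the other side, 275 kb from *Erg* and nearest to *Psmg1*, a region averaged 40.5 ± 17.8 in *Tbx5*G125R/+ and 8.21 ± 3.70 in controls. The genotypes did not overlap in either region, as in 73.2% of all regions in this direction, and nothing about *Erg* is read from this. No other called region lay within 500 kb of the 3 gene bodies. The member farthest from its gene was *Kdr* region 1 at 58.1 kb, so no member lay close to the limit of 100 kb.

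**Figure D4:**
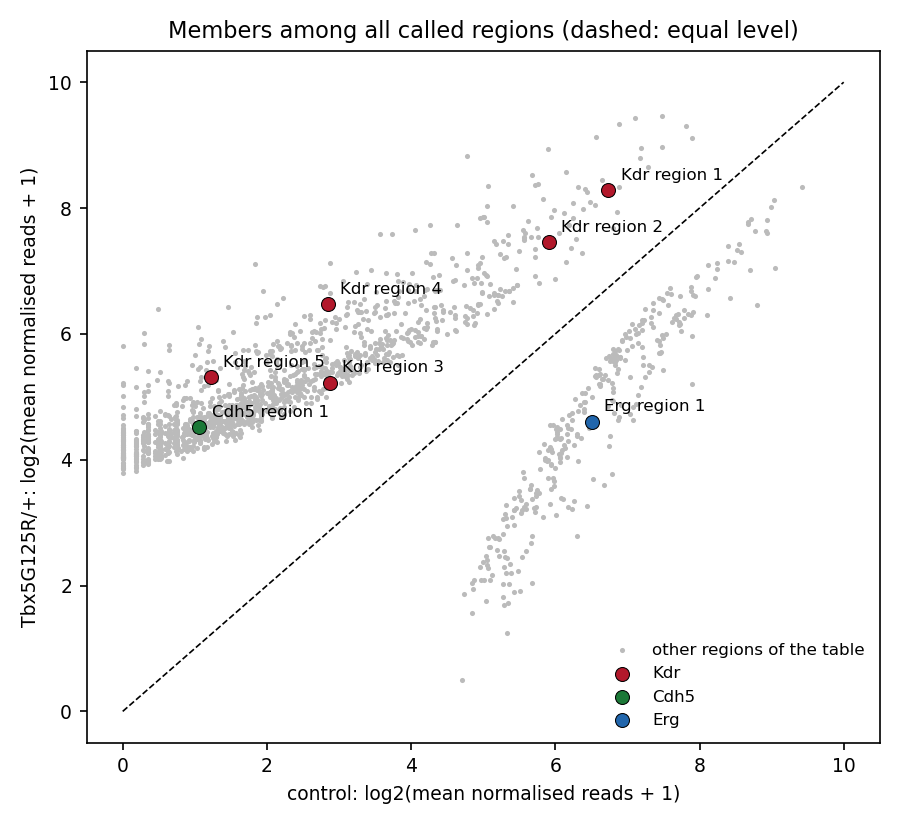
Mean level of each called region, as log2(mean normalised reads + 1), in *Tbx5*G125R/+ (vertical, n = 6) against controls (horizontal, n = 5), with the 7 regions at *Kdr*, *Cdh5* and *Erg* in colour among all 1652 regions in grey. *Kdr* regions 1 and 2 lie among the strongly acetylated regions with small ratios (they change sign with TMM). Region 5 and *Cdh5* lie among those with little control signal. Regions 3 and 4 have similar mean control levels (6.30 and 6.17), but that of region 4 is 1.07 without control replicate 2. *Erg* lies below the dashed line of equal level.

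In 7 lists of VEGF ligands, receptors, signalling, junction, Notch, transcription factor and marker genes, 21 of the 134 genes other than *Kdr*, *Cdh5* and *Erg* had a called region. All 22 of their regions had a higher mean level in *Tbx5*G125R/+, and in 21 of them no library overlapped between genotypes. Of all 1652 regions of the table, 81.1% had a higher mean and 73.2% had each *Tbx5*G125R/+ library above the controls, and nothing about the lists is read from their counts. Their median log2 difference was 3.38, against 3.51 over the 1339 regions of the table with a higher level. The lists were written with earlier results of these data known, and the table holds called regions only, so the share of each list that changed cannot be given.

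Among the ligands, *Vegfc*, which drives lymphatic growth, averaged 25.3 ± 17.0 normalised reads in *Tbx5*G125R/+ (SD, n = 6) and 2.49 ± 2.87 in controls (SD, n = 5). *Pgf*, placental growth factor, had no read in any control library and averaged 13.9 ± 5.38 in *Tbx5*G125R/+. Taking 3 reads over the control group as the floor, the ratio of means was at least 21.0 with the deposited scaling. This floor allows for counting error in controls alone. The region nearest to *Angpt1*, which encodes a ligand of the Tie2 receptor, lay 96.2 kb away and was the 1 region of the lists, beside *Cdh5* and *Erg*, whose genotypes overlapped.

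The receptors with a region besides *Kdr* were *Nrp1*, *Nrp2*, the BMP receptor gene *Bmpr2* and the apelin receptor gene *Aplnr* (7.36 kb outside its gene body). *Nrp1* and *Nrp2* encode neuropilins, co-receptors that bind VEGF together with VEGF receptors and also bind semaphorins. *Nrp2* averaged 92.6 ± 24.1 in *Tbx5*G125R/+ (SD, n = 6) and 9.18 ± 6.91 in controls (SD, n = 5), and *Nrp1* averaged 29.3 ± 9.89 in *Tbx5*G125R/+ and 3.98 ± 4.35 in controls. No region was assigned to the other VEGF receptor genes *Flt1* and *Flt4* or to *Tek* and *Tie1*. Of the signalling genes, *Prkca* (a protein kinase C), *Pik3r1* (a regulatory subunit of PI3-kinase), *Pxn* (paxillin, of focal adhesions) and *Nfatc2* (a calcium-dependent transcription factor) had 1 region each, all higher in *Tbx5*G125R/+.

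At cell junctions *Heg1*, a transmembrane protein needed for vessel integrity, and *Jup*, the junction protein plakoglobin that binds cadherins, had a region each besides *Cdh5*. *Heg1* averaged 24.7 ± 18.6 in *Tbx5*G125R/+ (SD, n = 6) and 1.18 ± 1.95 in controls (SD, n = 5). Of the transcription factors, *Klf2*, which responds to blood flow, had the region with the highest *Tbx5*G125R/+ level of its list. Its top bin, 13.6 kb outside the gene body, had 79.4 ± 35.6 in *Tbx5*G125R/+ and 14.1 ± 8.66 in controls. *Elk3* and *Foxo1* were also higher in *Tbx5*G125R/+, and no region was assigned to *Fli1*, *Ets1* or *Ets2*, other ETS genes of the list. The region nearest to *Notch1*, a receptor that restrains vessel sprouting, averaged 46.4 ± 8.01 in *Tbx5*G125R/+ and 6.85 ± 6.50 in controls. Its top bin lay 3.43 kb outside the gene body. The remaining regions lay at *Rbpj* (4.56 kb outside the gene body), which encodes the DNA-binding partner of Notch receptors, *Cd34*, *Ly6c1* and, with 2 regions, *Cgnl1*.

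Markers of cell types were compared in the same way, beside the 81.1% of all regions that were higher and the 18.9% that were lower in *Tbx5*G125R/+. Of 10 endothelial markers 3 had a called region, namely *Kdr*, *Cdh5* and *Erg*, and *Pecam1*, *Flt1*, *Tek*, *Tie1*, *Emcn*, *Egfl7* and *Vwf* had none. Of 8 fibroblast markers 5 had 7 regions (*Pdgfra*, *Col1a2*, *Dcn*, *Lum* and *Postn*), all higher in *Tbx5*G125R/+. Their summed level was 279 to 477 normalised reads in *Tbx5*G125R/+ libraries and 9.75 to 66.5 in control libraries. Some of these lay far from the gene body, at 89.7 kb for *Postn* and 97.2 and 40.0 kb for *Dcn*. Of 8 mural cell markers *Rgs5* had 1 region, at 2.19 to 28.9 in *Tbx5*G125R/+ and 0 to 1.38 in controls. Markers of macrophages and lymphocytes, Schwann cells and epicardium had no called region. A gene without a called region is not shown to lack the mark, since the table lists called regions only. Of 16 cardiomyocyte markers *Actc1*, *Actn2* and *Ryr2* had 4 regions, all lower, with a summed level of 280 to 367 in *Tbx5*G125R/+ libraries and 756 to 1134 in controls. The part of other cell types in the levels at *Kdr*, *Cdh5* and *Erg* was not tested.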

How the data were processed

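H3K27ac CUT&RUN of PCM1-sorted atrial nuclei was analysed in 6 *Tbx5*G125R/+ and 5 control libraries, grouped by their labels. BWA, bedtools and DESeq2 with build mm10 are listed in the submitters' processing notes (versions: not given in the sources used here). As read from the column names (per the file headers), the deposited signal is the normalised read count of each library, read here as that of the top bin: the authors scaled the reads of each library by a single size factor. A deposited log2 fold change (the authors' mean over a region) and a deposited adjusted p-value (under 0.05 in the regions listed) hold the authors' comparison and were not used.

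Dividing by the smallest step of a library gave whole reads for 100% of values (within 0.05 of a whole number). Depth limits precision: 1 read was worth 0.489 to 2.19 normalised reads in *Tbx5*G125R/+ and 0.681 to 1.95 in controls. Limits given for 0 reads allow for counting error alone, since PCR copies were not told apart by molecular identifiers.

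Differences are of mean log2(value + 1) without a filter, with an SE from the spread of libraries. A fold change on this scale understates the change of low regions. Members and lists were chosen with earlier results of these data known. Named genes were the 3 members, genes nearest to other regions within 500 kb, list genes with a region, and the 3 regions (mean at least 10) most like each member gene. Nearest genes came from RefSeq (GRCm38.p6), and 17 regions of the table had tied nearest genes. Alternatives were other pseudocounts, scalings, distance rules, a low-value filter, leaving out libraries, a replicate block, and edgeR 4.0.16 (R 4.3.3) on recovered reads, tested on simulated data. Python 3.11.15, pandas 2.3.3, numpy 2.4.6 and matplotlib 3.10.9 were used. Sequence under the called bins was not analysed here.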

Additional observations from a re-analysis of the deposited data

Results flagged for a closer look

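Of 16 sets of 4 to 10 libraries examined for a library far from the others, 2 held one, and chance gives about 1 in 20. That rate was not checked for low counts, such as the control set of *Kdr* region 4, where 3 libraries had 0 reads. At *Kdr* region 4, control replicate 2 had 26.6 normalised reads, where the next control library had 4.26. At *Kdr* region 5, *Tbx5*G125R/+ replicate 3 had 91.6 normalised reads, where the next library of that genotype had 36.0.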

How the results depend on the processing

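Of 57 alternatives for the 3 gene sums, 53 moved the log2 difference by less than the spread between libraries, and none reversed it. Most of the 57 left out 1 library. The low-value filter kept every member region and so could not move it, and the replicate block repeated a leave-one-out value. The tally is therefore no measure of robustness. With TMM the difference was 0.16 for *Kdr* and -3.52 for *Erg*, scaling to the same total gave 1.14 for *Kdr*, and a pseudocount of 5 gave 1.84 for *Cdh5*. TMM brought *Kdr* region 1 to -0.11 ± 0.29 (SE) and region 2 to -0.072 ± 0.38 (SE), both within 1 SE of 0. It left 2 regions without overlap in place of 5. TMM assumes that most regions of the table are unchanged, and the table lists called differences only. Leaving out 1 library at a time gave 1.78 to 1.99 for *Kdr*, 2.86 to 3.62 for *Cdh5* and -2.20 to -1.49 for *Erg*, and 5 to 7 regions without overlap (7 without control replicate 3). Without replicate 5 of each genotype, chosen after seeing the data, *Erg* lay at -1.15, and 6 regions did not overlap. Taking gene bodies alone gave 3 members in place of 7. Assigning regions to the nearest start site, from a promoter table in which no entry matched *Cdh5*, gave 6 members, 5 at *Kdr*, 1 at *Erg* and 0 at *Cdh5*. Same-numbered libraries were not most alike in their deviations from the genotype means (r from -0.15 to -0.017, 0 of 5 closest to their own number). The median control level over all regions was 3.68 normalised reads, so low counts leave open whether the numbers mark pairs. The replicate block gave 1.82 for *Kdr*, 2.86 for *Cdh5* and -2.05 for *Erg*. These equal the values without *Tbx5*G125R/+ replicate 6, which has no control of its number. The block therefore shows nothing beyond leaving out that library. On recovered reads edgeR's quasi-likelihood test with Benjamini-Hochberg adjustment called all 1652 regions, which is no independent evidence, since the regions had been selected on this contrast. Depth limits the *Cdh5* region and *Kdr* region 5, which had 5 and 4 control reads.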
